A study of Homo sapiens with 6 samples.

Results

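Cholesterol and fatty acid synthesis genes were examined in HMEC-1 cells, an immortalised line of human dermal microvascular endothelial cells, after knockdown of SETD7. The 35 genes were taken from a list covering the control of the SREBP transcription factors, the mevalonate pathway, the sterol-forming steps, sterol transport, and the synthesis and activation of fatty acids. Each of the 35 matched 1 row by gene symbol among the 18544 genes of the count table, and all 35 passed the filter on low counts, as did 18482 genes in all. The lowest count of any of them in any library was 68, for HSD17B7. Poly-A RNA was sequenced from 6 cultures kept at 5.5 mM glucose, 3 expressing a SETD7-directed shRNA from a lentivirus (Set7KD) and 3 expressing one without a target (NTC). Both groups had therefore been transduced. SETD7 is a lysine methyltransferase of histone H3 and of other proteins, and the comparison asks which transcripts differ when it is depleted.

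Cells adjust the synthesis of sterols and fatty acids through SREBP transcription factors, which are made as precursors in the membrane of the endoplasmic reticulum. SCAP carries the precursors to the Golgi, where proteases release the active factor, and INSIG proteins hold SCAP back when sterols are plentiful. SREBP-2, from SREBF2, acts mainly on sterol genes, and SREBP-1, from SREBF1, mainly on fatty acid genes. In the mevalonate pathway acetyl-CoA is turned into isoprenoids, which the later enzymes join into squalene and convert into cholesterol.

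SETD7 stood at 180, 178 and 176 CPM (counts scaled to 1000000 per library) in NTC and at 27.8, 43.8 and 26.7 CPM in Set7KD, a log2 fold change of -2.44 (SE 0.21, edgeR adjusted p = 0.000927). The libraries held 16385878 to 16953331 gene counts, and 1 count corresponded to 0.0585 to 0.0618 CPM. Of 12 endothelial markers 10 had a row, and CDH5 and TIE1 had mean levels of 206 and 143.5 CPM in NTC. The summed level of the 10 endothelial markers was 516 to 660 CPM in NTC against 412 to 451 CPM in Set7KD, with 2 members higher and 4 lower by edgeR. Over 7 fibroblast markers the sums were 1510 to 2070 and 3220 to 4180 CPM, with 5 higher and 0 lower, and over 11 smooth muscle and pericyte markers 678 to 764 and 1060 to 1370 CPM, with 4 of 11 higher and 0 lower. These marker levels moved with the groups, and their part in the results below was not tested. In RNA from whole cultures, fewer cells of a type and less RNA per cell cannot be told apart.

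Of the 35 genes, 10 were lower and 2 were higher in Set7KD at an edgeR adjusted p under 0.05. Together they made up 34.3% of the genes, beside 36.2% of all 18482 genes tested. In this test, genes of lipid synthesis were thus called no more often than genes at large. By direction, 28.6% of the 35 were lower beside 18.6% of all genes, and 5.71% were higher beside 17.6%. In the main test the median log2 fold change was -0.18 over the 35 genes and -0.01 over all genes tested. Of the 35 values 24 lay below 0, beside 9441 of the 18482 values of all genes. The number was 23 with relative log expression or upper-quartile scaling, which put ELOVL5 just above 0, and with DESeq2. It ran from 20 without NTC replicate 3 to 29 without NTC replicate 2. The 2 groups had no CPM range in common for 9 lower and 2 higher genes of the 35, which is 25.7% and 5.71%, beside 24.1% and 23.3% of all genes.

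**Figure D1:**
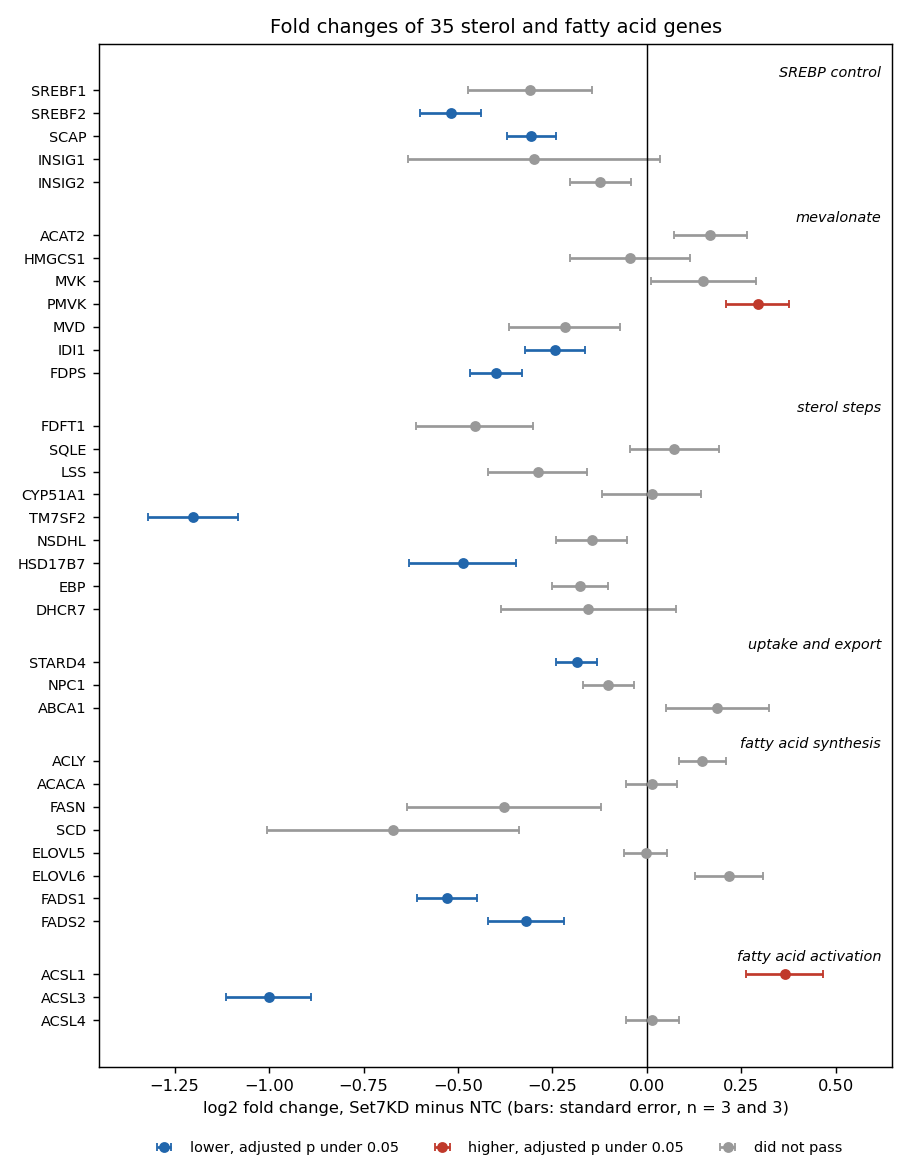
Log2 fold change (Set7KD minus NTC, horizontal axis) of the 35 genes in order of role, with standard errors as bars. Blue points were lower and red points higher at an edgeR adjusted p under 0.05, grey points did not pass; TM7SF2 at -1.20 and ACSL3 at -1.0 lie farthest from 0.

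Of these genes, 6 were called lower under every one of the 13 alternative settings: SREBF2, SCAP, FDPS, TM7SF2, FADS1 and ACSL3. They belong to 5 of the 6 roles. In single alternatives 13.7% to 22.1% of all genes tested were lower. The share of all genes that were lower in every setting was not counted. SREBP control was the role in which every value lay below 0 with all 6 libraries. In that role 2 of 5 genes were lower, beside 18.6% of all genes.

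Among the genes of SREBP control, SREBF2 (ENSG00000198911.7) fell. Its level was 276, 228 and 291 CPM in NTC against 194, 179 and 182 CPM in Set7KD, a log2 fold change of -0.52 (SE 0.08, edgeR adjusted p = 0.000364). Every Set7KD library lay below every NTC library. SCAP (ENSG00000114650.14), the escort of the precursors, fell from 98.7, 91.1 and 86.5 CPM to 76.3, 68.9 and 78.4 CPM, a log2 fold change of -0.31 (SE 0.07, edgeR adjusted p = 0.00196). The groups did not overlap for SCAP either, and the libraries of each group lay close together.

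The other genes of this role did not pass. SREBF1 had 83.2, 68.0 and 97.5 CPM in NTC against 74.4, 69.5 and 56.8 CPM in Set7KD, so that the groups overlapped, with an edgeR adjusted p of 0.203. Without NTC replicate 2 the log2 fold change of SREBF1 was -0.43 (adjusted p = 0.0149), and DESeq2 gave 0.0375. INSIG1, which holds SCAP in the endoplasmic reticulum and is itself a target of SREBP, had 76.7, 54.4 and 116.6 CPM in NTC against 69.2, 75.7 and 56.5 CPM in Set7KD. NTC replicate 2 thus lay below all Set7KD libraries for INSIG1 and NTC replicate 3 above them all, and the log2 fold change of -0.30 had a standard error of 0.33. INSIG2, which serves the same function but is not under the same sterol control, had 52.1 ± 4.84 CPM in NTC against 47.9 ± 4.32 CPM in Set7KD (mean ± SD, n = 3 each).

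In the mevalonate pathway 2 of 7 genes fell and 1 rose, beside 18.6% lower and 17.6% higher of all genes. The median log2 fold change was -0.05. FDPS (ENSG00000160752.10), the synthase of farnesyl diphosphate at the branch point to sterols and prenyl groups, fell from 194, 173 and 211 CPM to 149, 152 and 138 CPM. Its log2 fold change was -0.40 (SE 0.07, edgeR adjusted p = 0.000392), and the groups did not overlap. In GENCODE 29 its exons overlap the antisense gene RUSC1-AS1 by 693 bases (18.6% of the exon bases of FDPS), and RUSC1-AS1 was lower too, at -0.42, so reads of FDPS and RUSC1-AS1 cannot be told apart there. IDI1, the isomerase that supplies FDPS with its substrate, had 80.2, 71.0 and 89.3 CPM in NTC against 66.6, 72.7 and 64.0 CPM in Set7KD, with an adjusted p of 0.028. For IDI1 the groups overlapped in NTC replicate 2 and Set7KD replicate 2, and the adjusted p was 0.0841 without NTC replicate 1, 0.113 without NTC replicate 3, 0.117 without Set7KD replicate 1 and 0.129 without Set7KD replicate 3. IDI1 shares 643 exon bases with the antisense gene IDI2-AS1, which was lower at -0.32.

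PMVK, the kinase that adds the second phosphate to mevalonate, went the other way. It rose from 21.9, 24.2 and 22.9 CPM to 29.7, 25.7 and 29.2 CPM, a log2 fold change of 0.29 (SE 0.08, edgeR adjusted p = 0.012). The groups did not overlap, but PMVK missed the threshold when NTC replicate 1 (0.0643) or Set7KD replicate 1 (0.0639) was left out. The preceding kinase, MVK, had 14.7 ± 3.35 CPM in NTC against 16.3 ± 0.908 CPM in Set7KD (SD, n = 3) and an adjusted p of 0.433, which was 0.048 without NTC replicate 3.

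The remaining mevalonate genes did not pass. HMGCS1, the synthase of HMG-CoA, had 109.4, 84.4 and 130.2 CPM in NTC against 104.3, 108.4 and 101.4 CPM in Set7KD, all 3 Set7KD values lying inside the NTC range. Its log2 fold change was -0.05 (SE 0.16). MVD, the decarboxylase of the pathway, had 41.2 ± 8.23 and 35.4 ± 3.47 CPM, and its edgeR adjusted p of 0.293 became 0.0101 without NTC replicate 2 and 0.0243 with the replicate number as a block. ACAT2, the cytosolic thiolase that makes acetoacetyl-CoA, had 162 ± 25.0 and 183 ± 5.7 CPM, and its log2 fold change of 0.17 became 0.29 (adjusted p = 0.00296) without NTC replicate 3. Exons of ACAT2 overlap those of TCP1 on the opposite strand in the GENCODE 29 annotation by 397 bases, and TCP1 rose with a log2 fold change of 0.36, so that the level of ACAT2 is uncertain to that extent.

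Among the 9 genes of the sterol-forming steps 2 fell and 0 rose by edgeR, beside 18.6% lower and 17.6% higher of all genes. Their median log2 fold change was -0.18. TM7SF2 (ENSG00000149809.10), a sterol reductase of the endoplasmic reticulum that shares its reaction with LBR, had the lowest fold change of the 35 genes. Its level was 23.0, 19.4 and 21.3 CPM in NTC against 7.62, 10.8 and 9.37 CPM in Set7KD. The log2 fold change was -1.20 (SE 0.12, edgeR adjusted p = 2.38e-06), and the highest Set7KD library lay well below the lowest NTC library. LBR itself, the lamin B receptor, rose from 139.9 ± 2.24 to 168 ± 3.76 CPM (SD, n = 3), a log2 fold change of 0.27 with an adjusted p of 0.000689. The pair of sterol reductase genes thus moved in opposite directions.

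HSD17B7, which reduces a keto group during demethylation of the sterol ring, fell from 6.02, 5.60 and 6.90 CPM to 4.42, 4.64 and 4.16 CPM. Its log2 fold change was -0.49 (SE 0.14, edgeR adjusted p = 0.0134), with the threshold missed when NTC replicate 3 (0.0539) or Set7KD replicate 3 (0.0513) was left out and with DESeq2 (0.0545). The table also held rows for the related copies HSD17B7P1 and HSD17B7P2, with 0.903 to 3.39 CPM, between which reads of HSD17B7 could have been split.

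FDFT1, the squalene synthase, did not pass although its groups did not overlap. It had 155, 126 and 192 CPM in NTC against 115, 119 and 112 CPM in Set7KD, a log2 fold change of -0.46 (SE 0.15, edgeR adjusted p = 0.071). The NTC libraries of FDFT1 spread over a ratio of 1.52 between the highest and the lowest, the Set7KD libraries over 1.06. The adjusted p of FDFT1 was 0.04 with DESeq2, 0.012 with limma-voom, 6.95e-05 without NTC replicate 2 and 0.0091 without NTC replicate 3.

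The other sterol genes had values on both sides of 0. LSS, which closes the rings of the sterol skeleton, had 70.5 ± 12.9 CPM in NTC against 57.7 ± 3.38 CPM in Set7KD (SD, n = 3), with an edgeR adjusted p of 0.1295 that was 0.00422 with the replicate block, 0.0405 with DESeq2 and 0.000235 without NTC replicate 2. EBP, a sterol isomerase, had 59.8 ± 5.87 and 52.9 ± 2.53 CPM, and its adjusted p of 0.0732 was 0.0214 with the block and 0.0123 without NTC replicate 2. NSDHL, a dehydrogenase of sterol demethylation, had 27.2 ± 3.52 and 24.6 ± 1.49 CPM. None of these 3 passed in the comparison of all 6 libraries.

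DHCR7, the final reductase on the route to cholesterol, had 90.4, 60.8 and 108.4 CPM in NTC against 80.9, 74.6 and 77.6 CPM in Set7KD. Its adjusted p was 0.655 with all libraries and 0.00237 without NTC replicate 2. SQLE, the squalene epoxidase, had 60.1 ± 10.9 and 63.2 ± 3.71 CPM, with a log2 fold change of 0.07 that became 0.22 at an adjusted p of 0.0378 without NTC replicate 3. CYP51A1, the sterol demethylase, had 67.3 ± 12.4 and 67.96 ± 5 CPM and a log2 fold change of 0.01 (SE 0.13). DHCR7, SQLE and CYP51A1 shared the feature that the NTC libraries enclosed all Set7KD libraries.

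Among the genes of sterol uptake and export, STARD4, a carrier of cholesterol through the cytosol, was lower by a small amount. It had 109.4, 113.3 and 106.7 CPM in NTC against 98.4, 98.2 and 92.9 CPM in Set7KD, without overlap, a log2 fold change of -0.19 (SE 0.05, edgeR adjusted p = 0.0138). STARD4 missed the threshold when NTC replicate 2 (0.0554) or Set7KD replicate 3 (0.0731) was left out. The annotated antisense gene STARD4-AS1 rose with a log2 fold change of 0.86, and since no use of strand in the counting is stated, reads of STARD4 and STARD4-AS1 cannot be told apart where they overlap. NPC1, which releases cholesterol from lysosomes, had 94.7 ± 7.81 and 88.2 ± 5.27 CPM (SD, n = 3). ABCA1, the exporter of cholesterol to apolipoproteins, had 31.1, 31.6 and 28.4 CPM in NTC against 33.3, 42.4 and 27.9 CPM in Set7KD, and its adjusted p of 0.325 was 0.0248 without Set7KD replicate 3.

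Fatty acid synthesis followed no common direction, with a median log2 fold change of -0.16. By edgeR 2 of 8 genes were lower and 0 higher, beside 18.6% and 17.6% of all genes. FADS1 (ENSG00000149485.11), the delta-5 desaturase of polyunsaturated fatty acids, fell from 307, 260.2 and 294 CPM to 197, 220.4 and 179.8 CPM. Its log2 fold change was -0.53 (SE 0.08, edgeR adjusted p = 0.000263), and the groups did not overlap. FADS2, the neighbouring delta-6 desaturase gene, had 280.4, 219 and 294 CPM in NTC against 219.9, 213 and 203 CPM in Set7KD, a log2 fold change of -0.32 (SE 0.10, edgeR adjusted p = 0.0361). NTC replicate 2 lay among the Set7KD libraries for FADS2.

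The call of FADS2 depended on the libraries used: its adjusted p lay between 0.0578 and 0.178 without NTC replicate 1, NTC replicate 3 or any single Set7KD library, and was 0.0502 with upper-quartile scaling. Exons of FADS1 and FADS2 overlap by 490 bases on opposite strands in GENCODE 29, so reads from that stretch cannot be assigned. FADS3, the third gene of the cluster, fell from 117.8 ± 6.32 to 75.8 ± 6.09 CPM (SD, n = 3), a log2 fold change of -0.64 with an edgeR adjusted p of 3.56e-06.

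SCD, the desaturase that makes oleate and palmitoleate, had the lowest fold change of the fatty acid synthesis genes but did not pass. It had 374, 235 and 491 CPM in NTC against 239, 266 and 186 CPM in Set7KD, a log2 fold change of -0.67 (SE 0.33, edgeR adjusted p = 0.203). NTC replicate 2 lay below 2 of the Set7KD libraries and NTC replicate 3 was 2.09 times as high as NTC replicate 2. With limma-voom the adjusted p of SCD was 0.0365. The row of its processed copy SCDP1 showed the same order of NTC libraries, with 15.8, 9.51 and 18.0 CPM, so that reads of SCD may have been counted there.

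FASN, the fatty acid synthase, had 355, 247 and 455 CPM in NTC against 299.8, 248.7 and 265 CPM in Set7KD. The groups overlapped, and the log2 fold change of -0.38 (SE 0.26) had an edgeR adjusted p of 0.334, which was 0.00684 without NTC replicate 2. ACLY, which provides cytosolic acetyl-CoA from citrate, had 433 ± 41.0 CPM in NTC against 479.7 ± 8.04 CPM in Set7KD (SD, n = 3). Its log2 fold change of 0.15 had an adjusted p of 0.0814, which was 0.0175 with the replicate block and 0.0126 without NTC replicate 3.

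ACACA, the acetyl-CoA carboxylase, had 232 ± 20.5 and 234 ± 14.5 CPM, with a log2 fold change of 0.01 and a standard error of 0.07. ELOVL5, an elongase of polyunsaturated fatty acids, had 177 ± 11.4 and 177 ± 6.06 CPM, with a standard error of 0.06 on the log2 scale. ELOVL6, the elongase of saturated fatty acids, had 24.3 ± 2.03 and 28.3 ± 2.86 CPM, and its adjusted p of 0.0742 fell to 0.0381 when NTC replicate 3 and to 0.0364 when Set7KD replicate 3 was left out. For ACACA and ELOVL5 the difference between the groups was smaller than its standard error.

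Of the 3 long-chain acyl-CoA synthetases, which activate fatty acids by joining them to CoA, ACSL3 fell, ACSL1 rose and ACSL4 did not pass. ACSL3 (ENSG00000123983.9), a synthetase of the endoplasmic reticulum and of lipid droplets, fell from 155, 149 and 175 CPM to 74.2, 94.4 and 71.2 CPM. Its log2 fold change was -1.0 (SE 0.11, edgeR adjusted p = 0.000251), and the highest Set7KD library lay below the lowest NTC library. ACSL4, which prefers arachidonate, had 162, 161 and 193 CPM in NTC against 169, 185 and 167 CPM in Set7KD, with a log2 fold change of 0.01 and a standard error of 0.07. ACSL1, the synthetase associated with oxidation and triglyceride synthesis, rose from 12.3, 13.2 and 13.7 CPM to 17.7, 14.9 and 17.9 CPM, a log2 fold change of 0.37 (SE 0.10, edgeR adjusted p = 0.0111). The groups of ACSL1 did not overlap, but ACSL1 missed the threshold when NTC replicate 1 (0.0602) or Set7KD replicate 1 (0.0553) was left out.

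**Figure D2:**
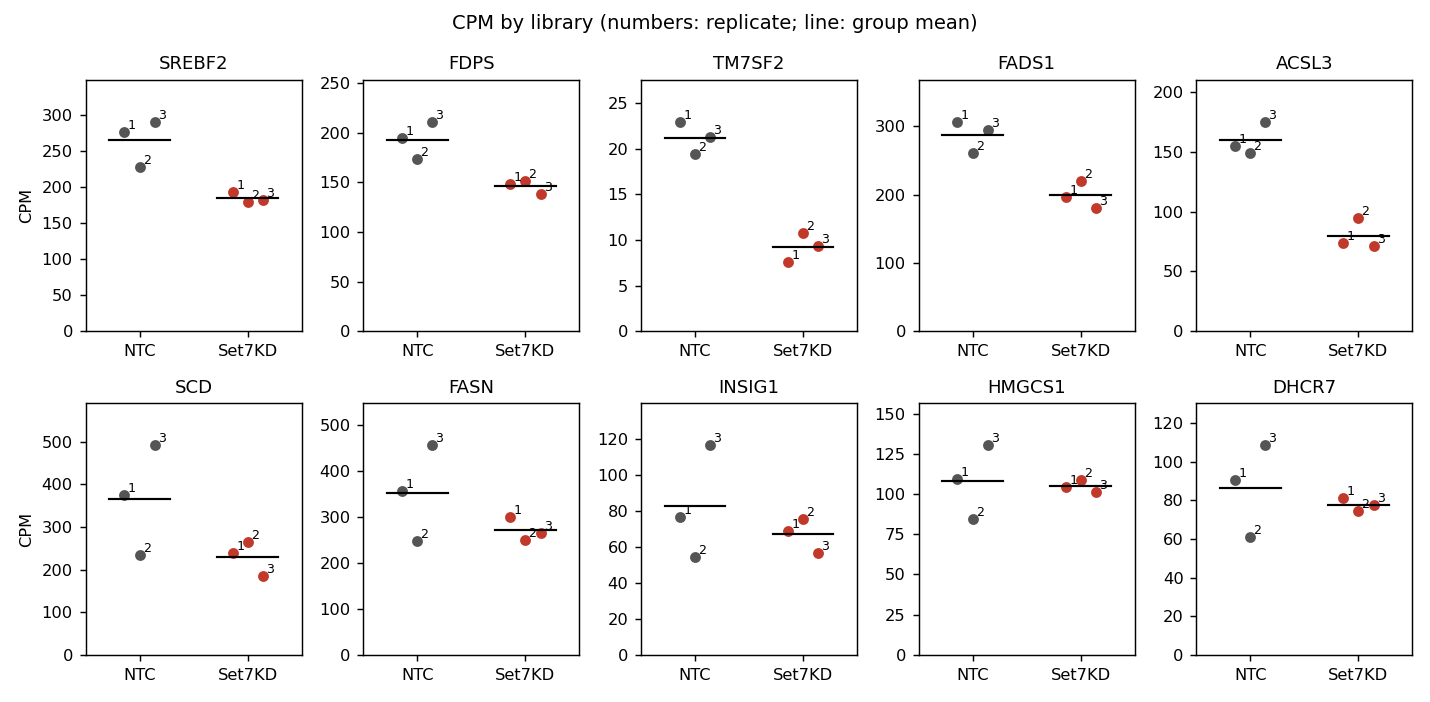
CPM of 10 of the genes in each library (vertical axis from 0, points numbered by replicate, line at the group mean). In the upper row the Set7KD points lie below all NTC points; in the lower row NTC replicates 2 and 3 lie far apart and the groups overlap.

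The members differed in how far replicate libraries lay apart, and mainly in NTC. Within NTC, replicate 2 was the lowest and replicate 3 the highest library for 27 of the 35 genes (77.1%), beside 19.4% of all genes tested. The order held for 8 of 9 sterol genes, 6 of 7 mevalonate genes and 7 of 8 fatty acid synthesis genes, and for 1 of 3 genes of uptake and export. It was absent in SCAP, INSIG2, PMVK, TM7SF2, STARD4, ABCA1, FADS1 and ACSL1. Within Set7KD the same order held for 5 of the 35 genes, beside 21.1% of all genes, and the most frequent order was replicate 3 lowest and replicate 2 highest, in 14 genes beside 21.8% of all genes.

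The ratio of the highest to the lowest NTC library had a median of 1.23 over the 35 genes and of 1.11 over the 12999 genes with at least 4 CPM in every library. In Set7KD the medians were 1.13 and 1.12. In NTC the ratio was 2.14 for INSIG1, 2.09 for SCD, 1.84 for FASN, 1.78 for DHCR7, 1.59 for MVK and 1.54 for HMGCS1, and in Set7KD the same genes had 1.34, 1.43, 1.21, 1.08, 1.11 and 1.07. The NTC ratio was 1.06 for STARD4, 1.14 for SCAP, 1.18 for FADS1 and 1.22 for FDPS. The NTC libraries held 16953331, 16435766 and 16692830 gene counts for replicates 1, 2 and 3, and the part of depth in this order was not tested.

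**Figure D3:**
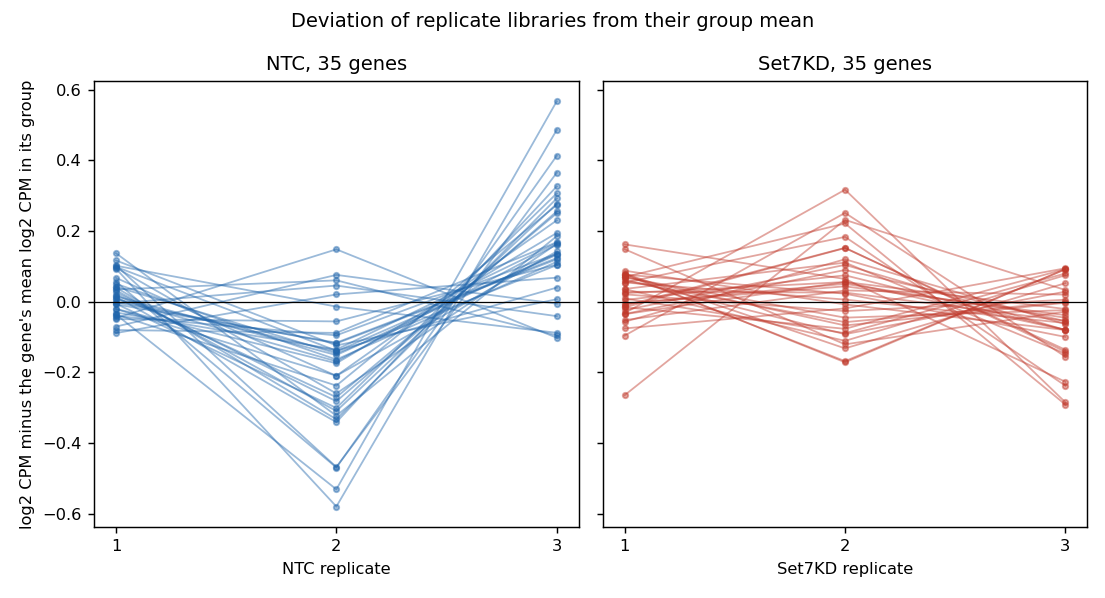
Log2 CPM minus the mean log2 CPM of the gene in its group (vertical axis) for the 3 NTC and the 3 Set7KD libraries; each line joins the values of 1 of the 35 genes. In NTC most lines dip at replicate 2 and peak at replicate 3, and in Set7KD they stay closer to 0.

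The libraries with the same replicate number therefore gave different pictures of these genes. In the libraries numbered 3, Set7KD was below NTC for 32 of the 35 genes, in those numbered 1 for 24 and in those numbered 2 for 15, beside 50.2%, 50.9% and 51.6% of all genes tested. SCD had log2 ratios of -0.65, 0.18 and -1.40 in the libraries numbered 1, 2 and 3, and INSIG1 had -0.15, 0.48 and -1.04. SREBF2 had -0.51, -0.35 and -0.68, and ACSL3 had -1.06, -0.66 and -1.30, lower with every number. In all, 15 of the 35 genes were lower and 3 were higher with every number, beside 33.0% and 31.3% of all genes.

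**Figure D4:**
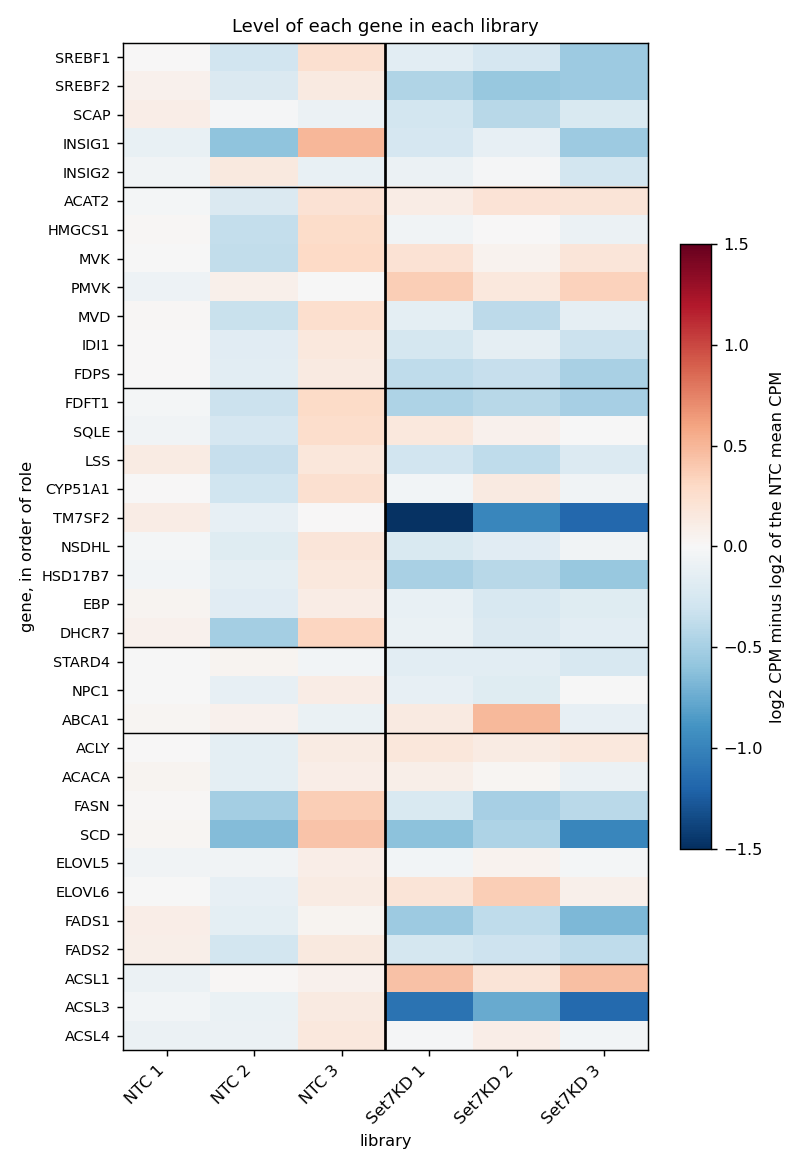
Log2 CPM minus the log2 of the mean NTC CPM (colour) for the 35 genes (rows, in order of role, with lines between roles) in the 6 libraries (columns). NTC replicate 2 is blue and NTC replicate 3 red for most genes, while TM7SF2 and ACSL3 are dark blue in all Set7KD libraries.

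Leaving out each library in turn changed the counts. Without NTC replicate 2, 16 of the 35 genes were lower (45.7%, beside 16.4% of all genes tested) and 2 higher (5.71%, beside 15.5%). Without NTC replicate 3, 8 were lower (22.9%, beside 17.8%) and 7 higher (20.0%, beside 16.2%). Without Set7KD replicate 3 the counts were 6 lower (17.1%, beside 15%) and 4 higher (11.4%, beside 15.1%). Without NTC replicate 1 or Set7KD replicate 1 they were 8 lower (22.9%) and 0 higher, beside 13.8% and 13.7% of all genes lower and 13.1% and 13.7% higher. The 7 genes added without NTC replicate 2 were SREBF1, EBP, LSS, DHCR7, FDFT1, MVD and FASN, all lower. Without NTC replicate 3 the genes added as higher were ACAT2, SQLE, ELOVL6, ACLY and MVK. The median log2 fold change over the 35 genes was -0.25 without NTC replicate 2 and -0.07 without NTC replicate 3.

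**Figure D5:**
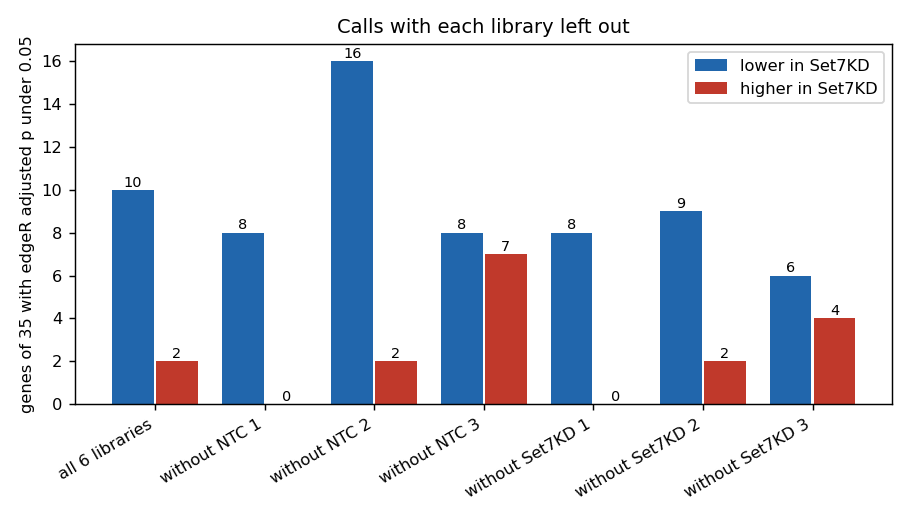
Number of the 35 genes called lower (blue) or higher (red) at an edgeR adjusted p under 0.05 with all 6 libraries and with each library left out. The count of lower genes runs from 6 to 16 and that of higher genes from 0 to 7.

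Levels were compared between genes per kilobase of annotated exon, for the 34 genes matched in GENCODE 29 (all but ACACA). On this scale ACLY had the highest level in NTC, 83.0 CPM per kilobase, followed by SCD with 68.4, FDPS with 51.9, ELOVL5 with 46.5 and ACAT2 with 37.8. The lowest levels were 1.29 for HSD17B7, 2.08 for ACSL1, 2.26 for MVK and 2.67 for ABCA1. TM7SF2 stood at 6.23 in NTC and 2.71 in Set7KD, below LSS with 9.73 and 7.97. The levels of ACSL3 and ACSL4 were 22.1 and 26.8 CPM per kilobase in NTC and 11.04 and 27.1 in Set7KD, with ACSL4 above ACSL3 in both groups and farther above it in Set7KD.

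Promoters were inspected because many of these genes differed together between the NTC libraries. Windows from 250 bases before to 50 bases after the annotated start were held in RefSeq (GRCh38.p14) for 31 of the 35 genes, 8 of which had several windows. They were searched on both strands for the core of the sterol regulatory element (TCACNCCAC), for the CCAAT box bound by NF-Y (CCAAT) and for the GC box bound by SP1 (GGGCGG), none of which contains another. CCAAT stood in a window of 21 of the 31 genes (67.7%), beside 42.8% of the 9893 tested genes with a window and 34.6% of all 35116 windows. GGGCGG stood in 29 of 31 genes (93.5%), beside 76.4% of tested genes and 45% of windows. TCACNCCAC was found in SREBF2 and ACSL1, 2 of 31 genes (6.45%), beside 1.54% of tested genes and 1.13% of windows. A match describes letters in these windows and is no evidence of binding.

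Some of the genes that fell in every setting (SREBF2, FDPS, TM7SF2 and FADS1) were set beside the genes with the widest NTC spread (SCD and INSIG1). The 250 bases before the start are shown for these 6 genes, with the 3 motifs of either strand in capitals. They lie at chr22:41832855-41833104 (plus strand) for SREBF2, chr1:155308616-155308865 (plus) for FDPS, chr11:65111622-65111871 (plus) for TM7SF2, chr11:61817004-61817253 (minus) for FADS1, chr10:100346983-100347232 (plus) for SCD and chr7:155297628-155297877 (plus) for INSIG1, all in GRCh38.p14.
SREBF2: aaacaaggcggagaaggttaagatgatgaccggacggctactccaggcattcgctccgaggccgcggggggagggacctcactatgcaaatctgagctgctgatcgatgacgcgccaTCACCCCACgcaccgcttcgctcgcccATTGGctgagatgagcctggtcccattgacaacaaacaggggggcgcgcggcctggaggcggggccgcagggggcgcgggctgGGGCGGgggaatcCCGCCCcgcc
FDPS: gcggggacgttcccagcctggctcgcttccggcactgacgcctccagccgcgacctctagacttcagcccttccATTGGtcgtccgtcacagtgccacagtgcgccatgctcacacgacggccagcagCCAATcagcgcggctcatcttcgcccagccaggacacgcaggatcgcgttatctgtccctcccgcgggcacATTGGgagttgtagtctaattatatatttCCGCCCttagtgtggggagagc
TM7SF2: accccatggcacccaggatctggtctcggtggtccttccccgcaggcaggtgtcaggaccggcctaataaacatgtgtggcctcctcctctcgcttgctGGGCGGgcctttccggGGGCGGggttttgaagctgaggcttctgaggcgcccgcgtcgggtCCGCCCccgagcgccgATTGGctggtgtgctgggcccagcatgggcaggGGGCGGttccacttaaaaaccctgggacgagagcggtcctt
FADS1: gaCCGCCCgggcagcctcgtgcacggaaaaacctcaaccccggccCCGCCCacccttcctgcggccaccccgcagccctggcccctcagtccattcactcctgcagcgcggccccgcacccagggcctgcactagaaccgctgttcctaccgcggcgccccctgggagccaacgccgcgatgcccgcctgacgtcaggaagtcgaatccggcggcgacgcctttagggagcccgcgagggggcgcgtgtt
SCD: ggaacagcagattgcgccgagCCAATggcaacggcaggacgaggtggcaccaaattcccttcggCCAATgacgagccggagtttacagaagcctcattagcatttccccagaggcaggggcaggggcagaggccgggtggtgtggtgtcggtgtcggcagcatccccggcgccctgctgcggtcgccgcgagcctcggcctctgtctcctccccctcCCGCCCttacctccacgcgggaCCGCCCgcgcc
INSIG1: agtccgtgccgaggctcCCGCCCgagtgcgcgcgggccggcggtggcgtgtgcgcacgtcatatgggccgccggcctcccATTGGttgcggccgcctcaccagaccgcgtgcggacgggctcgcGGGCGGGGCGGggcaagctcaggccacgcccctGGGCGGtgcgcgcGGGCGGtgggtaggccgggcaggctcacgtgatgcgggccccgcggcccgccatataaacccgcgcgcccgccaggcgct
The SREBF2 promoter carries the sterol element core at position -133 from the start with a CCAAT box at -106. FDPS has 3 CCAAT boxes, SCD has 2, TM7SF2 and INSIG1 have 1 each, and FADS1, without a CCAAT box, has 2 GC boxes. SCAP and ACSL3 also fell in every setting but are not shown. The SCAP window had no CCAAT box, and that of ACSL3 had 1, at -75. Genes of both kinds thus held CCAAT boxes in these windows. The kinds were not fully distinct, since SREBF2 and FDPS also had NTC replicate 2 lowest and NTC replicate 3 highest. Their NTC ratios of highest to lowest were 1.28 and 1.22, against 2.09 for SCD and 2.14 for INSIG1.

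The 3′ UTRs of the genes were also read, because earlier work on these libraries had found 7-base words, ATGAATC and TGAATCA, to go with lower fold changes across genes. The words were chosen on these same data, so their presence is no independent evidence. In the longest annotated 3′ UTR of each gene in GENCODE 29, at least 1 of the words occurred in 7 of 34 genes (20.6%), beside 17.8% of 12895 tested genes with a 3′ UTR. Of the 10 genes that fell, ACSL3 and STARD4 carried a word, and SREBF2, SCAP, IDI1, FDPS, TM7SF2, HSD17B7, FADS1 and FADS2 did not. The other carriers were ELOVL5, ELOVL6, HMGCS1, LSS and SCD. Among all tested genes 29.7% of those with a word were lower in Set7KD, and 20.6% of those without. Among the 34 genes the shares were 28.6% and 29.6%, with median log2 fold changes of -0.19 and -0.18. The length of the 3′ UTR was not taken into account. ACSL3 held the words at 2 places, 1 of them with both words overlapping. These sites and that of STARD4 are shown with 1 word in capitals each. At site 2 of ACSL3 only ATGAATC, at position 472 of the 3′ UTR, is in capitals, and TGAATCA starts at position 473.
ACSL3 site 1: gagaatttttcTGAATCAtattggggaag
ACSL3 site 2: ttcaaatgcttATGAATCaaatcattgtt
STARD4: aaaattatgttTGAATCAcctaaaatgta
The part of these words in the fold changes was not tested.

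The other genes of these pathways were described from 6 written lists with 120 tested genes, and their counts stand beside 17.6% of all genes higher and 18.6% lower. Of 14 genes of SREBP processing and INSIG turnover 3 were higher (21.4%) and 2 lower (14.3%) by edgeR, with a median log2 fold change of -0.03. ERLIN2, which takes part in the degradation of INSIG1, fell from 51.8 ± 0.229 to 26.9 ± 1.53 CPM (SD, n = 3), while its partner ERLIN1 rose from 145 ± 3.99 to 164 ± 0.429 CPM. MBTPS1, the first protease that cuts SREBP in the Golgi, was lower at -0.24, and the COPII coat gene SEC24D was higher at 0.79. The processing genes thus moved both ways.

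Among the remaining sterol and isoprenoid enzymes and their partners, which are not given in full, LBR and PGRMC1 were higher by 0.27 and 0.28 on the log2 scale. PGRMC1 binds haem and partners sterol demethylase, and it had an edgeR adjusted p of 0.00109. PDSS1, which helps to make the side chain of coenzyme Q, was higher by 0.50 (edgeR adjusted p = 0.0126), and NUS1, a subunit of the prenyltransferase for dolichol, by 0.29 (edgeR adjusted p = 0.0167).

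Of 22 genes of sterol transport, storage and the LXR receptors 9 were lower (40.9%) and 4 higher (18.2%), beside 18.6% and 17.6% of all genes, with a median of -0.22. NPC2, the lysosomal partner of NPC1, fell from 86.0 ± 10.2 to 55.3 ± 1.82 CPM, whereas LIPA, the lysosomal acid lipase that frees cholesterol from its esters, rose from 57.1 ± 1.6 to 100.6 ± 3.94 CPM (SD, n = 3). NR1H2, which encodes the receptor LXR-beta, fell at -0.58 and STARD3, a sterol carrier of late endosomes, at -0.45. Genes of the same compartment, NPC2 and LIPA, moved in opposite directions.

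In the fatty acid lists, 4 of 27 other genes of synthesis, elongation and activation were higher (14.8%) and 8 lower (29.6%), with a median of -0.03. FADS3 was lower as given above, ACSF2 fell at -0.53, the fatty acid transporter gene SLC27A1 at -0.61, and PTPLB, a dehydratase of fatty acid elongation, rose at 0.47. Of 19 genes of glycerolipid synthesis and lipid droplets 5 were higher (26.3%) and 3 lower (15.8%), with a median of 0.05. PLIN2, which coats lipid droplets, rose from 74.4 ± 7.3 to 113 ± 8.96 CPM and the acyltransferase gene GPAM from 30.9 ± 2.6 to 43.8 ± 1.6 CPM, while the lipase genes PNPLA2 and MGLL fell at -0.69 and -0.88.

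Fatty acid oxidation had 7 of 21 genes higher and 7 lower (33.3% each, beside 17.6% and 18.6% of all genes), with a median of 0.03. CPT1A, which admits long-chain fatty acids to mitochondria, rose from 86.0 ± 9.87 to 143.9 ± 13.6 CPM (SD, n = 3), and SLC25A20, the carnitine carrier of the inner membrane, rose at 0.72. Among the nuclear receptors of this list PPARG rose at 0.96 and PPARA fell at -0.75, with edgeR adjusted p of 2.83e-05 and 2.23e-05.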

How the data were processed

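The authors deposited raw read counts per gene for the 6 libraries in 1 table. Per the submitters' processing notes, BWA and bedtools were used with the build hg19, and neither versions nor the use of strand are given in the sources used here. A row with no gene took 55.6 to 56.1% of all reads counted in each library and was left out. The series' design text calls the triplicates biological but does not state separate transductions, and p-values then reflect the spread among these 6 libraries alone. No 2 libraries of a group were as alike as repeat counts of 1 library would be (chi-square per degree of freedom of 2.95 to 9.77).

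The test was the quasi-likelihood test of edgeR 4.0.16 under R 4.3.3 (filterByExpr, TMM, robust glmQLFit, glmQLFTest, group as the factor) with Benjamini-Hochberg adjustment over all 18482 genes tested, and called at an adjusted p under 0.05. The code was tested on simulated data. CPM use TMM-scaled library sizes, and standard errors are the log2 fold change over the square root of F. The members, lists, roles and tests were chosen with earlier results of these data known. All 35 genes are named, and of each other list up to 4 genes with the smallest p (some genes, and the counts of the list of remaining sterol and isoprenoid enzymes, are not reported here); TCP1, RUSC1-AS1, IDI2-AS1, STARD4-AS1, SCDP1, HSD17B7P1 and HSD17B7P2 lie outside that rule and were chosen as copies or overlapping genes. Deviations from group means over 11151 genes had correlations of 0.302, 0.419 and 0.34 for the 3 same-numbered pairs, each over 0.1. The replicate number stands in the sample titles and column headers, and same-numbered libraries follow each other in the headers. No label says what the number stands for, and it was used as a block in an alternative only. The main test, and the values given without a setting, did not use that pairing. Alternatives were RLE and upper-quartile scaling, no filter, a filter of 50 counts, the replicate block, DESeq2 1.42.0, limma-voom (limma 3.58.1) and each library left out. Exon lengths, overlaps and 3′ UTRs came from GENCODE 29 and promoters from RefSeq, both on GRCh38, a later build than that of the counts, and were joined by gene only.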

Additional observations from a re-analysis of the deposited data

How the results depend on the processing

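The counts of called genes over all 35 and over all genes tested kept within 1.5 times their value under each of the 7 alternatives that used all 6 libraries. By role, lower sterol genes went from 2 to 4 and higher fatty acid synthesis genes from 0 to 1 with the replicate block, and lower fatty acid synthesis genes from 2 to 1 with upper-quartile scaling. With the replicate block, 13 of the 35 genes were lower and 3 higher, and 4090 and 3826 of all genes. All 12 calls kept their direction and passed with the block, and EBP, LSS, ACLY and MVD were added. With DESeq2, 12 were lower and 2 higher, beside 2688 and 2712 of all genes. When single libraries were left out, the count of lower genes of the 35 ran from 6 to 16 and that of higher genes from 0 to 7. SETD7 was lower at an adjusted p under 0.05 in every alternative, with log2 fold changes from -2.71 to -2.31. None of the 12 genes called in the main test changed sign in any alternative run. DHCR7 (log2 fold changes from -0.35 to 0.04), SQLE (-0.04 to 0.22) and MVK (-0.003 to 0.33) did change sign. Each of these passed in 1 alternative and not in the main test. Of the 35 genes, 6 passed in all 13 alternatives, 9 in none and the other 20 in some. The same shares over all genes tested were not counted. Depth limited HSD17B7 most, with 68 to 118 counts per library.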
